A study of Homo sapiens with 8 samples.

Results

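The genes described here are the translation initiation and elongation factors of a human cell line. They were chosen by name: every gene whose RefSeq transcripts carry a symbol starting with EIF or EEF, leaving out EIF4A1, EIF4A2 and EIF4A3, pseudogenes and antisense genes. The rule found 68 genes of the 25875 symbols in the deposited table, with 150 of its 53216 transcripts. It also takes in 2 readthrough transcripts (EEF1AKMT4-ECE2 and EEF1E1-BLOC1S5) and genes that modify the factors. EIF1AY counts among the 68, but its values are not given, and EIF4EBP3 was listed at 0 in all 8 libraries.

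Translation begins when eIF2, carrying the initiator tRNA and GTP, joins the small ribosomal subunit with eIF1, eIF1A, eIF5 and the large eIF3 complex. The eIF4 factors bring this complex to the mRNA: eIF4E binds the methylguanosine cap, eIF4G is the scaffold, and eIF4B and eIF4H assist the helicase. The eIF2B complex recharges eIF2 with GTP, and kinases that phosphorylate the alpha subunit of eIF2 block that step in stress. In elongation eEF1A delivers aminoacyl-tRNA, the eEF1B subunits (EEF1B2, EEF1D, EEF1G) recharge eEF1A, and eEF2 moves the ribosome by 1 codon. An RNA can carry NAD in place of the methylguanosine cap, because RNA polymerase can start with NAD where the template calls for adenosine, and DXO is an enzyme that removes such NAD caps.

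RNA was from HEK293T cells, an established human embryonic kidney line, grown without treatment. The 2 WT RiboMinus libraries hold RNA depleted of ribosomal RNA, the 3 WT NAD-Capture libraries hold RNA of WT cells enriched for NAD-carrying RNA, and the 3 DXO-KO NAD-Capture libraries hold RNA enriched the same way from cells modified by a knockout of DXO. In NAD-Capture, ADP-ribosyl cyclase (ADPRC) exchanges the nicotinamide of NAD for an alkyne, biotin is clicked on, and streptavidin beads bind the RNA. Per the labels, a reaction without ADPRC served as the background control. None of the 8 libraries is from that reaction, so RNA that reached the beads without NAD is not subtracted from any value. The library kit also differs, TruSeq for RiboMinus and SMARTer for low input after capture, so capture and kit cannot be told apart when these are compared. Whether the DXO-KO cells are 1 clone, and whether replicates are separate cultures, is not given in the sources used here, so the p-values measure only the spread between these libraries. No RiboMinus library of the DXO-KO cells is among the 8, so a change in captured RNA and a change in the amount of that RNA cannot be told apart. The libraries are of RNA from whole cultures, so fewer cells with an RNA and less of it per cell cannot be told apart either.

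Where RNA polymerase starts an RNA with NAD, the start base is A. Many mRNAs of the translation machinery start instead with a C and a run of pyrimidines, the terminal oligopyrimidine (TOP) start through which mTOR controls their translation. The RefSeq promoter table (build GRCh38.p14) held an annotated start for 53 members, EIF1AY left out. The start base was A in 17 of them (32.1%), against 50.7% of 15843 protein-coding genes in the same table. A TOP-type start, here a C followed by at least 4 bases that are C or T, was found in 10 members (18.9%), against 4.60% of those protein-coding genes. Below are the 10 bases before the start in lower case and the 12 bases from the annotated start in capitals, first for 5 members with a TOP-type start and then for 5 abundant members whose annotated start is A. These are annotated positions, not starts measured in these libraries.
EEF1A1: cgtgaacgttCTTTTTCGCAAC
EEF2: cgtcagcgttCTCTTCCGCCGT
EIF2S3: gatttccttcCTCTTTTGGCAA
EIF3K: tttccaccacCTCTTCCTGTTC
EIF3M: gcccagttccCTTTTCCGGTCG
EEF1B2: aagtggccccAGCCTCGAGGCC
EEF1G: cgggcggcttACTTTGCGGCAG
EIF4G2: tgtcggaagcACTTCCCTAACT
EIF5: ggcgttgttcAGTCAGAGCGAG
EIF5A: tgggaacccgACCACACTAGCG
In the same build these 22-base windows lie at chr6:73521021-73521042 (minus strand) for EEF1A1, chr19:3985452-3985473 (minus) for EEF2, chrX:24054946-24054967 (plus) for EIF2S3, chr19:38619178-38619199 (plus) for EIF3K and chr11:32583821-32583842 (plus) for EIF3M. They lie at chr2:206159599-206159620 (plus) for EEF1B2, chr11:62573880-62573901 (minus) for EEF1G, chr11:10807985-10808006 (minus) for EIF4G2, chr14:103334227-103334248 (plus) for EIF5 and chr17:7306989-7307010 (plus) for EIF5A. The other members with a TOP-type start were EIF2A, EIF2D, EIF3D, EIF3F and EIF4B.

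All values are FPKM (fragments counted per kilobase, relative to library size), summed over the transcripts of a gene. The libraries differed in depth: the low values put the 2 RiboMinus libraries at 1.07e+07 and 8.72e+06 fragment equivalents, the WT NAD-Capture libraries at 165137 to 248381, and the DXO-KO-labelled libraries at 803774, 137653 and 80492. Of the 68 members, 63 and 64 rested on at least 10 fragments in the RiboMinus libraries, 37 to 40 after WT capture, and 56, 33 and 28 in the DXO-KO-labelled libraries. Small nucleolar and Cajal body RNAs held 10.2% to 12.8% of all FPKM in RiboMinus, 20.2% to 26.6% after WT capture and 47.6% to 82.4% in the DXO-KO-labelled libraries. Of 7 genes known from this line, 5 were above 0 in all 8 libraries, and of 10 markers of other cell types, none was: they summed to 1.95 to 2.49 FPKM in RiboMinus, 14.3 to 19.1 after WT capture and 2.57 to 17.9 in the DXO-KO-labelled libraries, with PTPRC and HBB at 0 in all. The targeted gene itself, DXO, read 11.2 and 14.3 FPKM in RiboMinus, 33.2, 17.2 and 27.1 after WT capture and 128, 61.6 and 71.7 in the DXO-KO-labelled libraries. RNA of DXO was thus higher in every library labelled DXO-KO than in any other (log2 difference 1.69 between the NAD-Capture groups, adjusted p = 0.113 by limma; exact permutation p = 0.1, two-sided, the smallest that 3 against 3 allows), so these values do not show the loss of the gene, and the group is called by its label below.

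The members' summed FPKM per library was 6019 and 6006 in RiboMinus, 5908, 5454 and 4683 after WT capture, and 4854, 8043 and 8253 in the DXO-KO-labelled libraries. As a share of all FPKM it was 1.11% ± 0.00677 (SD, n = 2), 0.346% ± 0.0776 (SD, n = 3) and 0.198% ± 0.159 (SD, n = 3). As a share of the FPKM of mRNA transcripts alone it was 1.75% ± 0.0140, 1.14% ± 0.0557 and 1.43% ± 0.168, in the same order. The WT NAD-Capture libraries were the lowest on the mRNA scale, at 1.08% to 1.19%, and did not overlap the DXO-KO-labelled libraries, at 1.24% to 1.55%. The small RNAs that take up more of the captured libraries enter the share of all FPKM and not the share of mRNA.

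The make-up of this sum, which a scaling factor per library leaves as it is, differed between the sample types. Elongation factors, with EEF1E1 counted among them by name, made up 28.2% and 29.3% of the members' FPKM in RiboMinus, 45.5%, 46.2% and 40.2% after WT capture and 45.0%, 49.9% and 45.5% in the DXO-KO-labelled libraries. The 9 members of the eIF4 group made up 14.7% in both RiboMinus libraries, 7.59% to 8.68% after WT capture and 6.50% to 10.4% in the DXO-KO-labelled libraries. The 5 eIF2B subunits went from 2.78% and 2.62% to between 1.09% and 1.41% in WT NAD-Capture, and lay between 0.535% and 1.49% in the DXO-KO-labelled libraries. The role that separated the NAD-Capture groups from each other was eIF5A with the subunit-joining factors: 5.72% to 8.07% in WT and 3.57% to 4.29% in the DXO-KO-labelled libraries, with no overlap. That separation went with EIF5A, at means of 230 and 121 FPKM. Of the role's 6 genes, 3 had a positive log2 fold change, among them EIF5 (0.52) and EIF5B (0.31). The role shares add up within a library, so 1 role's larger share is another's smaller one, and they were not tested.

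**Figure D1:**
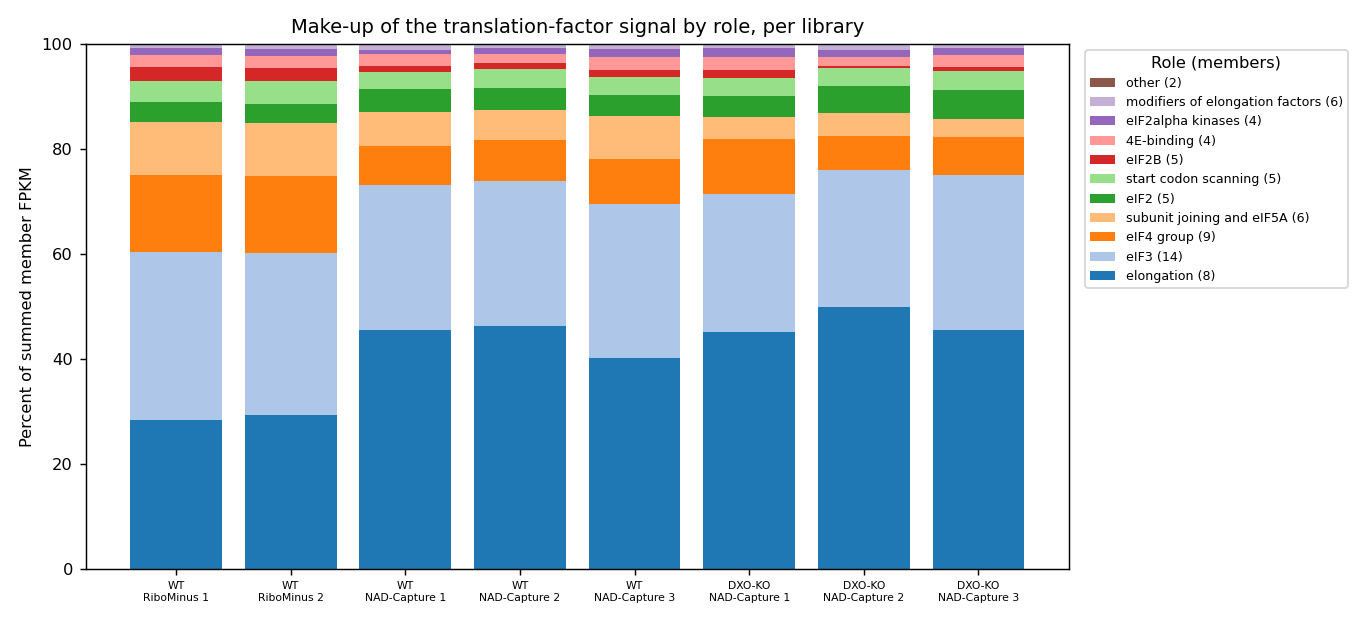
Percent of the members' summed FPKM (y axis) held by each role in each of the 8 libraries (x axis), as stacked bars, with the number of members of each role in the key. The elongation factors hold under 30% of the bar in the 2 RiboMinus libraries and over 40% in all 6 NAD-Capture libraries.

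The first comparison asks which of these mRNAs stand higher or lower among captured RNA than in the cells' RNA at large: WT NAD-Capture against WT RiboMinus. Of the 65 members with a mean of at least 1 FPKM, 20 passed the test, 7 higher and 13 lower in NAD-Capture. Among all 16980 genes tested at this filter, 24.7% passed, 16.7% higher and 8.00% lower. The members lay below that background in higher calls (7 of 65) and above it in lower calls (13 of 65). The test was limma on log2(FPKM + 1) with Benjamini-Hochberg adjustment over all genes, and fold changes below are on that scale. The members' median was -0.41 against 0.21 for all genes, with 18 members above 0 and 47 below, where 55.1% of all genes were above 0. At an unadjusted p under 0.05 there were 34 members, against 37.9% of all genes. The groups did not overlap for 43 members, 14 higher and 29 lower in NAD-Capture, against 55.6% of all genes, 28.7% higher and 26.9% lower. All calls depend on both RiboMinus libraries: with either one left out no member passed (16 and 18 at an unadjusted p under 0.05). With the libraries centred on their median gene, which lowers the median of all genes from 0.21 to -0.26, 2 members passed as higher and 25 as lower, against 13.1% and 18.1% of all genes. With FPKM rescaled to mRNA it was 3 and 25, against 14.9% and 16.7%. With a mean of at least 10 FPKM required, 6 of 50 members passed as higher and 15 as lower, against 1128 and 1253 of 6906 genes. The medians were then -0.49 for members and -0.34 for all genes, nearer each other than at a mean of at least 1 FPKM. EIF4E1B, 1 of the 7 called higher, reached the mean of 1 FPKM only through the captured libraries, and so its call supports nothing. EIF3C reached it only through RiboMinus and did not pass.

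Elongation factors, a role in which EEF1E1 was counted by its name, stood highest in captured RNA. Of the 8, 7 had a positive fold change (5 or 6 of 8 under the 3 other scalings). As higher 3 passed, EEF1E1 among them, and none as lower, with a median of 0.88. Among all genes 16.7% passed as higher and 8.00% as lower. EEF1D, the delta subunit of the eEF1B exchange factor, read 112 and 123 FPKM in RiboMinus, 384, 353 and 310 after WT capture and 283, 478 and 285 in the DXO-KO-labelled libraries. Every captured library was above both RiboMinus libraries, with a log2 fold change of 1.56 (SE 0.18, adjusted p = 0.00515) between the WT groups. EEF1B2, the alpha subunit of eEF1B, read 115 and 123 against 302, 208 and 235 FPKM, and rose by 1.04 (SE 0.22, adjusted p = 0.0247). EEF1E1, a scaffold protein of the aminoacyl-tRNA synthetase complex, read 88.8 and 82.7 against 153, 187 and 253 FPKM and rose by 1.16 (SE 0.26, adjusted p = 0.0279). This rise depends on the transcript length its reads were divided by: RiboMinus had 57.9 and 55.7 FPKM on NM_004280, of 1077 nt, while the WT captured libraries had 131, 187 and 244 on NM_001135650, of 562 nt. With transcript length taken out (FPKM times effective length in kb, summed per gene), EEF1E1 stood at 62.0 and 58.6 in RiboMinus against 66.7, 67.7 and 96.0, and did not pass (0.32, adjusted p = 0.383). Of these 3, EEF1D passed under each of the other scalings tried, while EEF1B2 and EEF1E1 kept a positive fold change but did not pass when libraries were centred (0.57 and 0.69) or rescaled to mRNA (0.60 and 0.73).

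The 2 factors that do most of the work of elongation did not pass. EEF1A1, the main carrier of aminoacyl-tRNA, read 247 and 220 FPKM in RiboMinus and 420, 500 and 194 after WT capture (log2 fold change 0.56, SE 0.44, adjusted p = 0.392). One captured library lay below both RiboMinus libraries, and under quantile normalization the sign turned (-0.06). EEF1A1 has many near-identical processed copies in the genome, so how the authors' counting placed its reads is uncertain. EEF2, the translocase, read 817 and 891 FPKM in RiboMinus and 833, 652 and 486 after WT capture (-0.41, SE 0.28, adjusted p = 0.328). It was the only elongation factor with a negative value, and it passed as lower under quantile normalization (-1.88) and mRNA rescaling (-0.85). EEF1G, the gamma subunit of eEF1B, read 296 in both RiboMinus libraries and 551, 569 and 370 after WT capture, all higher, but missed the threshold (0.72, adjusted p = 0.0949), and under quantile normalization its value was -0.02. EEF1A2, the other eEF1A isoform, known from neurons and muscle, read 15.4 and 16.2 against 40.0, 39.9 and 24.4 FPKM (1.06, adjusted p = 0.0504).

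**Figure D2:**
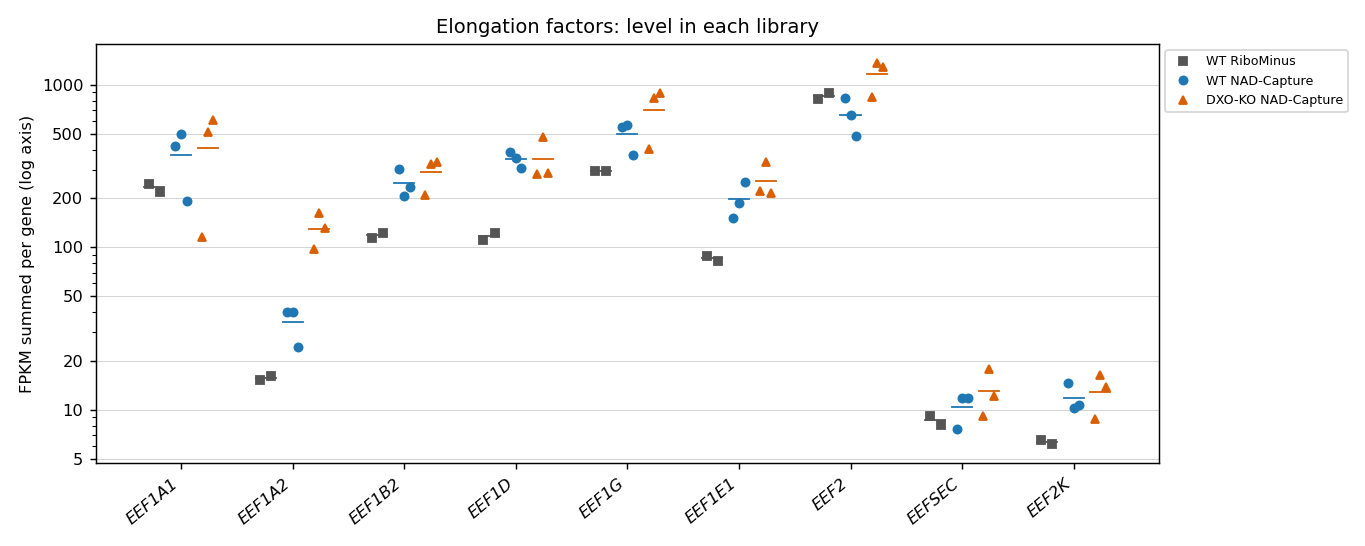
FPKM summed per gene (y axis, log scale) of the elongation factors and EEF2K in each library, with 1 point per library, a short line at each group mean, and groups by colour and shape. EEF1D, EEF1B2 and EEF1E1 lie higher in all captured libraries than in RiboMinus, and EEF1A2 lies highest in the DXO-KO-labelled libraries.

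Of the 14 eIF3 genes, 1 rose and 4 fell in captured RNA (none and 9 with libraries centred), with 3 above 0 and 11 below. Over all genes 16.7% were called higher and 8.00% lower, or 13.1% and 18.1% with libraries centred. EIF3E read 170 and 164 FPKM in RiboMinus and 458, 314 and 293 after WT capture, and rose by 1.05 (SE 0.25, adjusted p = 0.0333), a call lost when libraries were centred (0.58) or rescaled to mRNA (0.62). EIF3K, a small peripheral subunit, read 225 and 206 against 50.2, 74.2 and 61.5 FPKM and fell by 1.80 on the log2 scale (SE 0.22, adjusted p = 0.00593). EIF3B, a core subunit, read 147 and 145 against 52.1, 45.5 and 23.1 FPKM and fell by 1.91 (SE 0.38, adjusted p = 0.0204). EIF3M fell by 1.02, from 174 and 164 to between 81.2 and 83.7 FPKM, and EIF3L by 0.72, from 168 and 161 to between 89.2 and 117 FPKM. EIF3A, the largest core subunit, read 145 and 139 against 158, 138 and 86.4 FPKM (-0.20, adjusted p = 0.629), with overlap between the groups.

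Ratios between subunits need no scaling between libraries. The ratio of EIF3E to EIF3K FPKM was 0.756 and 0.796 in RiboMinus, 9.12, 4.23 and 4.77 after WT capture, and 3.09, 24.1 and 39.1 in the DXO-KO-labelled libraries. EIF3K rested on 5.8 to 9.8 fragments in the WT captured libraries and on 28, 1.4 and 0.8 in those labelled DXO-KO, so the last 2 ratios rest on about 1 fragment each. Over 12 eIF3 subunits, leaving out the near-identical pair EIF3C and EIF3CL, the highest was 10.8 to 11.4 times the lowest in RiboMinus, 18.8 to 29.6 times in WT NAD-Capture and 15.5 to 40.0 times in the DXO-KO-labelled libraries. EIF3I led in both RiboMinus libraries and EIF3E in all 3 of WT NAD-Capture. The pair of subunits in the ratio was chosen after their values were seen. EIF3C and EIF3CL were listed at 3.78 FPKM or less in RiboMinus, far below their partners, and their values are uncertain because it is not known how reads shared by the 2 copies were placed.

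In the eIF4 group of 9, 3 members fell, and none rose apart from EIF4E1B, whose call supports nothing. Among all genes 8.00% were called lower and 16.7% higher. EIF4G1, the scaffold that joins eIF4E, the helicase and eIF3, read 200 and 205 FPKM in RiboMinus, 44.5, 39.3 and 45.0 after WT capture and 56.3, 38.4 and 58.6 in the DXO-KO-labelled libraries. Its fall of 2.21 on the log2 scale (SE 0.17, adjusted p = 0.00235) was the largest among the members called, and no library of one type came near the other. EIF4G2, a related protein that lacks the eIF4E-binding part, fell by 1.50 (SE 0.19, adjusted p = 0.00627), from 369 and 380 to 154, 125 and 118 FPKM. EIF4H, which stimulates the helicase, fell by 1.42 (SE 0.19, adjusted p = 0.00734), from 127 and 122 to 45.5, 52.9 and 40.5 FPKM. All 3 calls held under the 3 other scalings. EIF4B, which also stimulates the helicase, read 80.4 and 76.4 against 147, 90.4 and 99.0 FPKM (0.48, adjusted p = 0.245). EIF4E, the cap-binding protein, read 8.78 and 9.0 against 6.52, 11.4 and 6.33 FPKM (-0.17, adjusted p = 0.729). That sign turns with transcript length taken out (1.36, adjusted p = 0.431), and 2 of the WT captured libraries have 9.17 and 6.15 FPKM on NM_001968, of 11523 nt. EIF4E1B, a paralog known from oocytes, was listed at 0 in both RiboMinus libraries and at 5.82, 10.2 and 31.6 FPKM in WT NAD-Capture, on 2, 3 and 13.9 fragments.

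**Figure D3:**
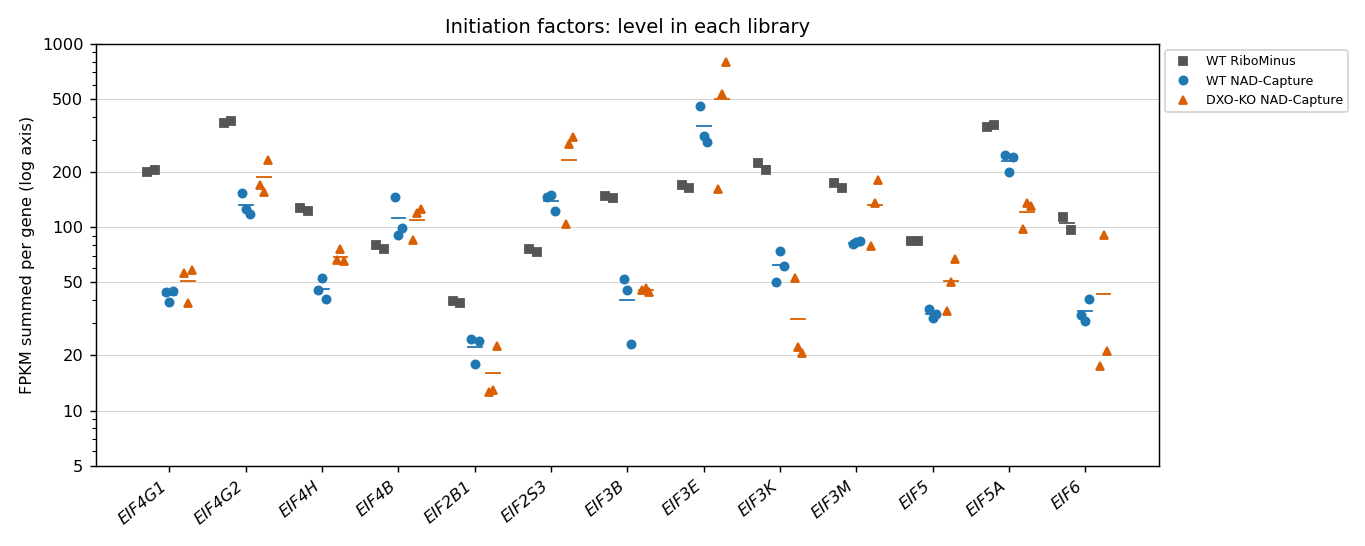
FPKM summed per gene (y axis, log scale) of 13 initiation factors in each library, with 1 point per library, a short line at each group mean, and groups by colour and shape. EIF4G1, EIF4G2, EIF4H, EIF3B, EIF3K, EIF5 and EIF2B1 lie lower in WT NAD-Capture than in RiboMinus, while EIF3E and EIF2S3 lie higher, and EIF5A is lowest in the DXO-KO-labelled libraries.

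The 5 subunits of eIF2B, the exchange factor of eIF2, were all lower in captured RNA with no overlap between the groups, and 2 passed. Over all genes 26.9% were lower without overlap and 8.00% were called lower. EIF2B5, the catalytic subunit, read 21.5 and 20.9 FPKM against 1.93, 6.75 and 5.99 (log2 fold change -2.03, SE 0.49, adjusted p = 0.0355). EIF2B3 read 37.7 and 32.5 against 11.1, 8.58 and 20.0 FPKM (-1.42, SE 0.38, adjusted p = 0.0476). Both calls were lost under quantile normalization, and the captured values rest on 0.9 to 6.2 fragments per library. The other 3 were EIF2B1 (-0.80), EIF2B2 (-1.76) and EIF2B4 (-1.32), with adjusted p of 0.0544, 0.0640 and 0.186 by limma. Centred or rescaled to mRNA, 4 of the 5 passed as lower, beside 18.1% and 16.7% of all genes.

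Of the 5 eIF2 genes, 1 rose and none fell, with 4 below 0, beside 16.7% of all genes called higher and 8.00% lower. EIF2S3, the gamma subunit of eIF2 that binds the tRNA and GTP, read 76.5 and 72.8 FPKM in RiboMinus, 146, 149 and 123 after WT capture and 105, 284 and 312 in the DXO-KO-labelled libraries. It rose by 0.89 between the WT groups (SE 0.18, adjusted p = 0.0216), a call lost when libraries were centred (0.42) or rescaled to mRNA (0.45). EIF2S1, the alpha subunit, read 39.9 and 38.1 against 39.7, 37.0 and 38.0 FPKM (-0.03, adjusted p = 0.909), and EIF2S2, the beta subunit, 34.5 and 35.7 against 32.6, 32.9 and 18.5 (-0.36, adjusted p = 0.439). The ratio of EIF2S3 to EIF2S1 was 1.92 and 1.91 in RiboMinus and 3.67, 4.04 and 3.24 after WT capture. Among the kinases of eIF2alpha, EIF2AK4, which responds to uncharged tRNA, read 16.4 and 15.8 against 3.95, 3.45 and 4.60 FPKM and fell by 1.78 (SE 0.26, adjusted p = 0.00918), on 3 to 6 fragments in the captured libraries. EIF2AK1, EIF2AK2 and EIF2AK3 did not pass (-0.06, 0.29 and -0.72). EIF2D and EIF2A, which can deliver initiator tRNA without eIF2, stood at -2.66 and -1.34 (adjusted p = 0.0695 and 0.0908 by limma), from means of 42.3 and 29.4 to 8.68 and 12.2 FPKM. In the captured libraries EIF2D rested on 6.6, 0.9 and 0.9 fragments and EIF2A on 7.7, 3.3 and 3.3.

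Of the factors of subunit joining, EIF5, the GTPase activator of eIF2, fell by 1.30 (SE 0.17, adjusted p = 0.00690), from 84.2 and 84.6 to 35.7, 32.0 and 33.6 FPKM. EIF6, which keeps the ribosomal subunits apart, fell by 1.57 (SE 0.21, adjusted p = 0.00704), from 113 and 96.7 to 33.1, 30.8 and 40.7 FPKM. Its captured values rest on 3.8, 3.7 and 10.6 fragments. They were led by NR_052024, NR_052022 and NM_181468 in turn, and both RiboMinus libraries by NM_002212. EIF5A, the hypusine-carrying factor, read 351 and 362 against 247, 200 and 242 FPKM and missed the threshold (-0.64, adjusted p = 0.0561), although it passed under each of the 3 other scalings. EIF5B, the GTPase of subunit joining, read 40.1 and 39.6 against 49.0, 28.6 and 40.8 FPKM (-0.05, adjusted p = 0.908). EIF1, which guards start codon choice, fell by 0.86 (SE 0.22, adjusted p = 0.0415), from 150 and 169 to 72.3, 105 and 87.2 FPKM, a call lost under quantile normalization.

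None of the 3 tested 4E-binding proteins passed. EIF4EBP1, the mTOR target that sequesters eIF4E, read 79.0 and 81.9 against 82.4, 52.1 and 74.9 FPKM (-0.23, adjusted p = 0.539). Of the 6 modifiers of elongation factors, EEF1AKMT3, a methyltransferase of eEF1A, passed as higher (1.60, SE 0.33, adjusted p = 0.0231) from 1.16 and 1.93 to 6.25, 7.27 and 6.46 FPKM. Those captured values rest on 2.8 to 3.8 fragments, and the call was lost under centring and quantile normalization. EEF2K, the kinase that inactivates eEF2, read 6.51 and 6.17 against 14.6, 10.2 and 10.8 FPKM, with no overlap but no call (0.80, adjusted p = 0.0886).

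Other genes of translation were taken as a list of 35, among them termination and recycling factors, poly(A)-binding proteins, regulators and mitochondrial factors. Between the WT groups 3 of the 35 rose and 7 fell, beside 16.7% of all genes called higher and 8.00% lower, with a median of -0.51. Centred or rescaled to mRNA, 3 rose and 15 fell in both, with medians of -0.98 and -0.95, beside the 18.1% and 16.7% of all genes called lower. PAIP2, which inhibits the poly(A)-binding protein, rose by 2.86 (SE 0.25, adjusted p = 0.00283), from a mean of 48.5 to 366 FPKM. PABPC1, that poly(A)-binding protein itself, rose by 2.44 (SE 0.22, adjusted p = 0.00308), from 102 to 565 FPKM, and DOHH, which completes the hypusine of eIF5A, by 1.66 (adjusted p = 0.0227). The largest falls were those of DHX29, a scanning helicase (-2.52), GCN1, the activator of EIF2AK4 (-2.19), MTOR (-1.97), LARP1, the repressor of TOP mRNAs (-1.79), and PABPC4 (-1.77), with adjusted p between 0.00527 and 0.0256 by limma. Of these 8, DOHH and PABPC4 lost their call under quantile normalization. The 2 others that fell were DPH1 (-1.48) and GSPT1 (-0.99).

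Transcript length and base composition moved with the fold change over all genes. Spearman's rho between log2 fold change and the GC percent of the leading transcript, the one with the highest mean FPKM over all libraries among those with a known length, was 0.39 over 16423 genes, and with length -0.18, as descriptions across genes, which are not independent replicates. Over the 65 members rho was -0.09 with GC percent and -0.05 with length. Among genes with a mean of at least 10 FPKM, those with the shortest transcripts, up to 1802 nt, had a median of -0.09 over all genes and -0.63 over their 17 members, with 4 members called higher and 3 lower. Those with the longest, from 3362 nt, had medians of -0.49 and -0.14 over their 18 members, with none called higher and 4 lower. The part of length and composition in the result was not tested.

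**Figure D4:**
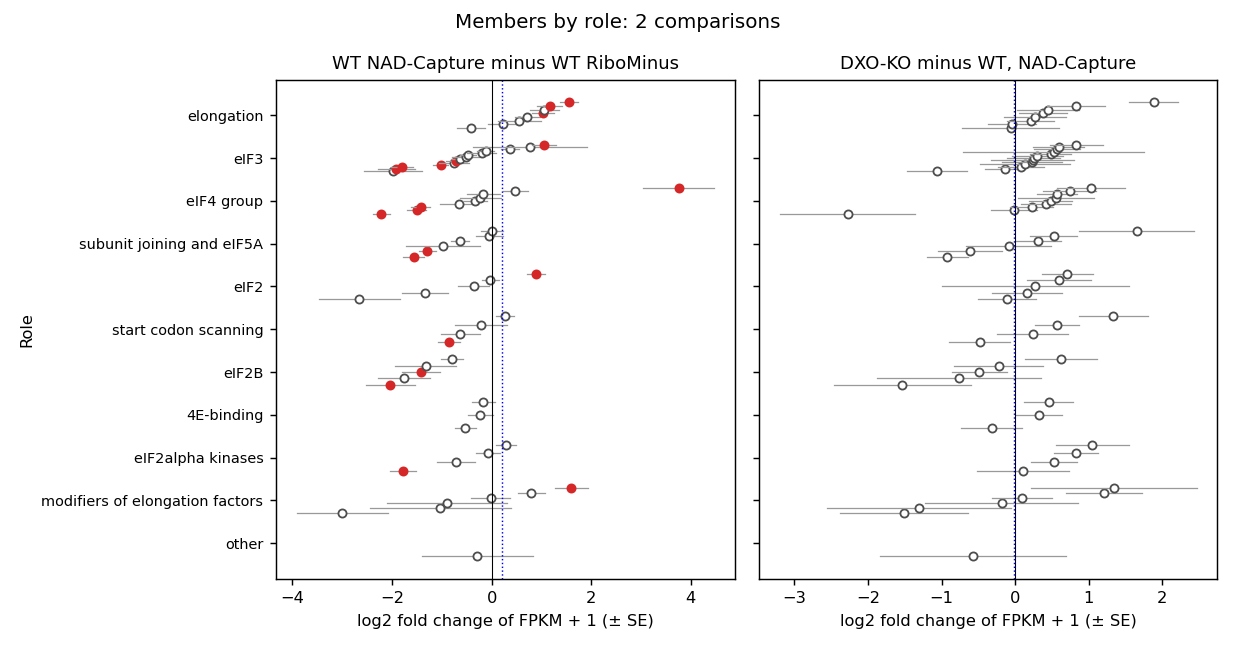
Log2 fold change of FPKM + 1 with its standard error (x axis) for each tested member, by role (y axis), between WT NAD-Capture and WT RiboMinus (left) and between the DXO-KO-labelled libraries and WT, both NAD-Capture (right). Filled red points passed an adjusted p of 0.05, the black line is 0 and the dotted line is the median of all genes: 20 members passed on the left and none on the right.

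The second comparison asks what differs in captured RNA when the enzyme that removes NAD caps has been targeted: the DXO-KO-labelled libraries against WT, both NAD-Capture. It shares the WT NAD-Capture libraries with the first. None of the 64 tested members passed by limma, where 6 of 17726 genes, 0.0338%, passed, 0.0169% higher and 0.0169% lower. At an unadjusted p under 0.05 there were 8 members, against 16.7% of all genes. The members' median log2 fold change was 0.27 against -0.02 for all genes, with 44 members above 0 and 20 below, where 49.5% of all genes were above 0. Under quantile normalization it was 0.09 against 0.05, with 37 above and 27 below. Among genes with a mean of at least 10 FPKM it was 0.31 over 52 members against 0.27 over all 7071 genes. The members' higher median is thus largely shared by genes of that level. The groups did not overlap for 13 members, 12 of them higher under the DXO-KO label and 1 lower, against 23.3% of all genes, 11.8% higher and 11.5% lower. The first of the DXO-KO-labelled libraries was the deepest of its group by the fragment equivalents above, and the spread within the group was wide: EIF3E read 162, 533 and 801 FPKM and EEF1A1 115, 509 and 608.

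EEF1A2 had the largest positive difference of the 64. Its 97.2, 163 and 131 FPKM in the DXO-KO-labelled libraries stood above the 40.0, 39.9 and 24.4 of WT NAD-Capture, which in turn stood above the 15.4 and 16.2 of RiboMinus. The log2 fold change between the NAD-Capture groups was 1.88 (SE 0.33, unadjusted p = 0.000381, adjusted p = 0.0773 by limma), on 142, 40.8 and 19.1 fragments against 14, 12 and 11. With all 8 libraries in 1 fit, which shares the spread with the RiboMinus pair, it passed (adjusted p = 0.0248), and leaving out any 1 library the fold change lay between 1.65 and 2.08. Its ratio to EEF1A1 within a library was 0.0622 and 0.0737 in RiboMinus, 0.0953, 0.0798 and 0.126 after WT capture and 0.843, 0.321 and 0.215 in the DXO-KO-labelled libraries. The groups did not overlap on that measure either, which needs no scaling between libraries. That pair was chosen after its values were seen. Spearman's rho between log2 fold change and GC percent in this comparison was -0.41 over 17123 genes and -0.15 over the 64 members. The EEF1A2 transcript has 66.4% GC. The part of base composition in these values was not tested.

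EIF5A was the only member whose FPKM did not overlap in the other direction. It read 97.7, 136 and 130 FPKM in the DXO-KO-labelled libraries against 247, 200 and 242 in WT NAD-Capture (-0.92, SE 0.28, unadjusted p = 0.00984, adjusted p = 0.180 by limma). With the 351 and 362 FPKM of RiboMinus, its 3 groups were fully separated in order. Its near-copy EIF5AL1, with which it may share reads, read 9.35, 8.05 and 20.5 against 17.3, 16.8 and 21.2 FPKM (-0.62, adjusted p = 0.486). DOHH, the enzyme that finishes the modification of eIF5A, also had groups that did not overlap and was lower (means of 10.3 and 19.0 FPKM, -0.83, adjusted p = 0.327).

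The kinases of eIF2alpha were higher in all 4 members, 3 of them with no overlap, and none passed. Over all genes 11.8% were higher without overlap. EIF2AK1, the heme-regulated kinase, read 50.4, 57.9 and 67.0 FPKM against 25.2, 37.3 and 35.4 (0.83, SE 0.30, adjusted p = 0.232). EIF2AK4 read 6.88, 8.27 and 14.0 against 3.95, 3.45 and 4.60 FPKM (1.05, adjusted p = 0.326). EIF2AK2, the kinase activated by double-stranded RNA, read 25.5, 33.6 and 38.3 against 21.4, 20.3 and 24.3 FPKM (0.52, adjusted p = 0.414). EIF2AK3, the kinase of the endoplasmic reticulum, read 2.26, 4.95 and 2.79 against 1.83, 3.48 and 3.67 FPKM (0.10, adjusted p = 0.945). These 4 were described together after their values were seen, EIF2AK2 overlapped between the groups with transcript length taken out, and the median of the role stayed above 0 under the 3 other scalings, from 0.63 to 0.80.

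The other members with no overlap were EEF2, EIF1, EIF3D, EIF3J, EIF4E2, EIF4G2, EIF4H and EEF1AKMT2, all higher in FPKM and none past the threshold. For EIF1 and EIF4E2 the groups nearly met. Their lowest values under the DXO-KO label were 105.4 and 56.0 FPKM, and their highest WT values 104.9 and 55.3. EIF3J, a loosely bound eIF3 subunit, read 28.3, 39.6 and 28.3 against 15.4, 24.6 and 13.7 FPKM, but the DXO-KO-labelled values lay on NM_001284335, of 925 nt, and the WT values on transcripts of 1550 and 2569 nt. With length taken out it was lower in all 3, at 20.5, 28.7 and 20.5 against 36.6, 33.2 and 32.4 FPKM times kb (-0.55, adjusted p = 0.563), and the direction turned. EEF2 read 844, 1362 and 1285 FPKM against 833, 652 and 486, and the lowest library of one group nearly met the highest of the other (0.83, SE 0.40, adjusted p = 0.331). EIF4H read 66.0, 76.1 and 65.3 against 45.5, 52.9 and 40.5 FPKM (0.57, adjusted p = 0.324), and EIF4G2 171, 156 and 234 against 154, 125 and 118 FPKM (0.48, adjusted p = 0.415). In both, the DXO-KO-labelled libraries stayed below RiboMinus. Among members with a mean of at least 10 FPKM, the largest positive values after EEF1A2 were those of EEF1AKMT4 (1.34), EIF1B (1.33), EEF1AKMT2 (1.2) and EIF4E (1.03). The largest negative values were those of EIF3K (-1.06), EIF5A (-0.92), EIF2B4 (-0.76), EIF5AL1 (-0.62) and EIF2B1 (-0.49). Most of these rest on few fragments. EIF3K and EIF2B4 had 1.9 or fewer in 2 of the DXO-KO-labelled libraries. EEF1AKMT2 had 9.6, 2.6 and 2.8 fragments against 1.8, 0.8 and 2.6, EIF1B 17.1, 7.6 and 4 against 4.8, 1.9 and 2.9, and EEF1AKMT4 11.4, 7.8 and 2.1 against 7.9, 0 and 5.2. EIF4E had fewer under the DXO-KO label (7.3, 2.5 and 1.7) than 2 of the WT libraries (1.1, 17.5 and 17.3), and with transcript length taken out its value turned to -1.20.

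The other elongation factors did not pass. EEF1D had the same mean in both groups, 349 FPKM (-0.04, SE 0.33, adjusted p = 0.961), and the values of EEF1B2 (0.21), EEF1E1 (0.38), EEF1G (0.45) and EEF1A1 (-0.06) did not pass either, with adjusted p between 0.565 and 0.970 by limma. A p that misses the threshold does not show that these levels are alike: the standard errors, from 0.32 to 0.65, leave room for differences of that size. Of the 35 other genes of translation none passed, and their median was 0.43 (0.13 under quantile normalization, with 20 above 0 and 15 below). The median of all genes with a mean of at least 10 FPKM was 0.27. Without overlap 9 of the 35 were higher and 2 lower, beside 11.8% and 11.5% of all genes. Values of the 35 ran from -1.69 to 2.08, with DHX29 at the top (means of 18.2 and 3.93 FPKM, adjusted p = 0.147).

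The values were also set out by annotated start. The 17 members with a start at A had a median of -0.64 between the WT groups, with 1 called higher and 5 lower, and the 10 with a TOP-type start -0.49, with 1 higher and 2 lower. Over all genes 16.7% were called higher and 8.00% lower there. Between the NAD-Capture groups the medians of these lists were 0.45 and 0.22, with none called. Between the WT groups 2 of the 17 were above 0 and 15 below, and of the 10, 3 were above and 7 below. Of all 65 tested members 18 were above 0 and 47 below, where 55.1% of all genes were above 0. EEF1B2 was the 1 member called higher among those with a start at A, and EIF2S3 among those with a TOP-type start. No test was made of the difference between these lists.

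Which transcript carried a gene's FPKM also differed between libraries. Of 31 members with more than 1 transcript, 8 of 31 and 5 of 30 measured had at least 99% of their FPKM on 1 transcript in the RiboMinus libraries, against 16 of 29, 20 of 30 and 16 of 28 in WT NAD-Capture and 14 of 29, 21 of 29 and 17 of 25 in the DXO-KO-labelled libraries. The leading transcript was the same in both RiboMinus libraries for 21 of 25 members measured in all 8, in the 3 WT NAD-Capture libraries for 11, and in all 8 for 5. EIF4H had 127 and 122 FPKM on NM_022170 in RiboMinus and nearly 0 on NM_031992, but in WT NAD-Capture 45.5, 52.9 and 40.5 FPKM on NM_031992 and nearly 0 on NM_022170. The libraries labelled DXO-KO were split: the first and deepest had 62.5 FPKM on NM_022170 and 3.48 on NM_031992, and the other two had 76.1 and 65.3 on NM_031992. EIF3B was divided in RiboMinus, with 73.5 and 77.6 FPKM on NM_001037283 and 73.7 and 67.4 on NM_003751. The first of the DXO-KO-labelled libraries had 45.2 on NM_001037283 and nearly 0 on NM_003751, and the 5 other captured libraries the reverse. The EIF4H values rest on 20.1 to 23.2 fragments in each WT captured library against 2642 and 3370 in RiboMinus. The part of depth in these switches was not tested. FPKM divides by the length of the transcript a read is placed on, so a shift between transcripts of unequal length changes a gene's sum. On the scale with transcript length taken out, chosen after seeing the data, 19 of the 20 members called between the WT groups kept their call, and EEF1E1 did not. For EEF1D, NM_001130056 and NM_001289950 had no known length and were given the median of its known lengths. They held 14.0% and 62.1% of its FPKM in RiboMinus and 32.6% and 12.7% after WT capture. Transcript length was therefore not fully taken out for EEF1D.

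**Figure D5:**
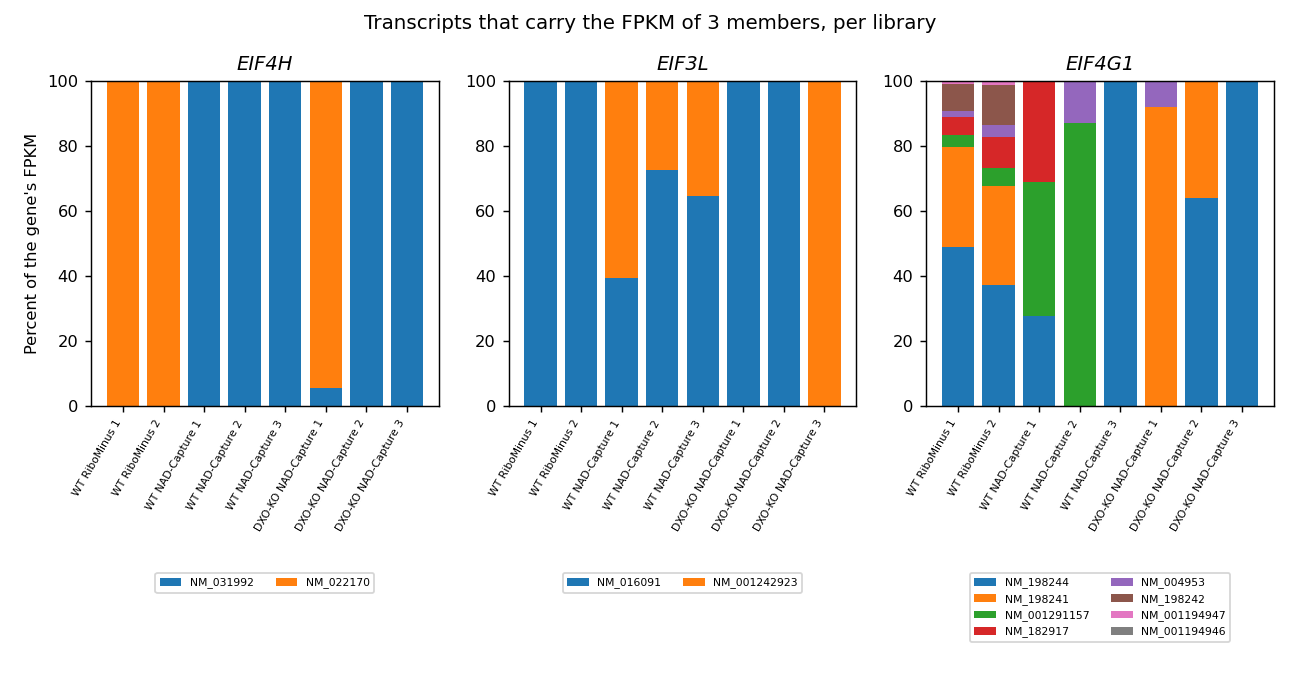
Percent of a gene's FPKM on each of its RefSeq transcripts (y axis, stacked) in each of the 8 libraries (x axis) for EIF4H, EIF3L and EIF4G1. EIF4H sits on NM_022170 in RiboMinus and in the first library labelled DXO-KO and on NM_031992 in the 5 others, and EIF4G1 sits on several transcripts in RiboMinus and on 1 to 3 in each captured library.

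Small nucleolar RNAs are annotated inside 6 members on the same strand: EEF1B2, EEF2, EIF3A, EIF4G1, EIF4G2 and EIF5. SNORD97, inside EIF4G2, read 2019 and 1567 FPKM in RiboMinus, 3909, 7993 and 4346 after WT capture and 3927, 10340 and 28663 in the DXO-KO-labelled libraries, so all captured libraries were above RiboMinus while the spliced mRNA of its host fell. SNORD66, inside EIF4G1, was listed at 0 and 2199 FPKM in RiboMinus and at 0 in all 6 captured libraries. SNORD51 in EEF1B2 and SNORD37 in EEF2 were listed at 0 in all 8 libraries. SNORA41, also in EEF1B2, read 0 and 33.2 FPKM in RiboMinus and 0, 0 and 347 after WT capture. The DXO-KO-labelled libraries had 375, 567 and 0 FPKM of SNORA41. SNORA28, in EIF5, read 0 and 46.1, then 0, 673 and 0, and then 723, 1452 and 0 FPKM, in the same order of groups. SNORA19, in EIF3A, was at 0 in RiboMinus and after WT capture, and read 843, 0 and 4074 FPKM in the DXO-KO-labelled libraries. Between the WT groups the 6 hosts had 1 call higher (EEF1B2) and 3 lower (EIF4G1, EIF4G2 and EIF5), beside 16.7% and 8.00% of all genes. Between the NAD-Capture groups none was called, and all 6 were above 0 with a median of 0.39.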

How the data were processed

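The deposited table holds FPKM per RefSeq transcript in 8 libraries; per the submitters' processing notes, reads were aligned to hg19 with TopHat2 2.1.1 and Bowtie2 2.2.8.0, and Cuffdiff is named. Scaling between libraries is not given in the sources used here. Symbols came from RefSeq GRCh38.p14 and GENCODE tables for 52502 transcripts (98.7%); FPKM was summed per symbol. Lengths less 200 nt and the spacing of low values gave fragment equivalents (71.1% to 73.1% of low values within 4% of whole multiples); values of shared transcripts are not whole, so no count test was run. limma 3.58.1 (R 4.3.3; trend, two-sided) was fitted on log2(FPKM + 1) to genes with a mean of at least 1, with Benjamini-Hochberg adjustment, after a check on simulated data. Named members: those past the threshold, the 5 largest rises and falls between NAD-Capture groups at a mean of at least 10, and a list of 21; others were named after their values were seen. Members and lists were chosen with earlier results of these data known. Alternatives changed the pseudocount (0.1, 5), filter, feature, scaling, transcript length, libraries and block.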

Additional observations from a re-analysis of the deposited data

How the results depend on the processing

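Depth limits most captured values: with members restricted to at least 10 fragments in every library compared, an alternative chosen after seeing the data, 13 of 34 members passed between the WT groups (5 higher, 8 lower) and none of 27 between the NAD-Capture groups. No share over all genes was computed at that limit. Between the WT groups the 20 members called became 11 with all 8 libraries in 1 fit, and 15, 16 and 16 of the 20 kept their call when centred, quantile normalized or rescaled to mRNA. Leaving out 1 library gave 0 to 23 members and 20 to 5362 genes, in place of 20 and 4197; the lowest are those without either RiboMinus library (20 and 30 genes), where the lone library is assumed to vary like the others. Genes called were 2381 with a mean of at least 10 FPKM, 2402 after quantile normalization, 2639 with all 8 libraries and 6363 as single transcripts. Between the NAD-Capture groups the 6 genes became 16 with a pseudocount of 5, 11 centred, 27 quantile normalized, 11 rescaled to mRNA and 442 with all 8 libraries, where 1 member, EEF1A2, passed; leaving out 1 library gave 4 to 16 genes (11 without the second and 16 without the third library labelled DXO-KO). With transcript length taken out, also chosen after seeing the data, 25 members passed between the WT groups, 7 higher and 18 lower. Of all genes there, 18.5% passed as higher and 9.84% as lower. Between the NAD-Capture groups 23 genes and no member passed. The members' share of mRNA FPKM was 1.75%, 1.14% and 1.43% in place of 1.11%, 0.346% and 0.198% of all FPKM, and 1.06% of all FPKM in RiboMinus without EEF1A1. The causes were not tested.

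Signs turned only for values that did not pass, apart from EEF1B2 (-0.12) and PABPC4 (0.22) as single transcripts between the WT groups. There EIF4B was -1.79 as a single transcript, EIF3G -0.10 centred and -0.068 rescaled to mRNA, and after quantile normalization EEF1A1 was -0.057, EEF1G -0.023, EIF2S1 0.27, EIF4EBP1 0.041 and EIF5B 0.26. With transcript length taken out EIF4E was 1.36 there, and between the NAD-Capture groups EIF4E was -1.20, EIF3J -0.55 and EEF1D 0.042. Between the NAD-Capture groups, centring gave EEF1D 0.084, EIF6 0.037, EEF1A1 0.062, EIF2S2 0.013 and EIF4B 0.11; quantile normalization gave EIF3E -0.16, EEF1B2 -0.072, EIF4G1 -0.057, EIF3B -0.025 and EIF3A -0.040; and single transcripts gave EEF1D 1.70, EIF3B -1.59, EIF6 2.44, EIF4H -0.73 and EIF2AK2 -1.13. Leaving out 1 library turned EEF1D (-0.29 to 0.088), EIF3E (-0.24 to 0.91), EIF3B (-0.098 to 0.47), EIF6 (-0.82 to 0.34), EEF1AKMT4 (-0.079 to 2.28), EIF2B4 (-1.71 to 0.56), EEF1A1 (-0.50 to 0.69), EIF2S2 (-0.37 to 0.13), EIF4B (-0.15 to 0.20), EEF2K (-0.083 to 0.33) and EIF2AK3 (-0.15 to 0.28) there, and EIF2S1 (-0.062 to 0.0034), EIF3A (-0.38 to 0.053) and EIF5B (-0.22 to 0.16) between the WT groups.

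Whether the replicate numbers pair the samples is not given in the sources used here. Deviations from the group mean had correlations of -0.033 to 0.023 between same-numbered libraries over all genes. These values cannot decide it, because depth limits most captured values and the RiboMinus deviations mirror each other around their mean by construction. With the replicate block, in which WT NAD-Capture library 3 has no partner and drops out of the first comparison, 0 members and 0 genes passed between the WT groups (27 and 5740 at an unadjusted p under 0.05), EIF3A turned to 0.053, and between the NAD-Capture groups 0 members and 4 genes passed.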
